A study of Homo sapiens with 8 samples.

Results

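The 9 genes described here belong to the transforming growth factor beta (TGF-beta) pathway: the ligands TGFB1 and TGFB2, the antisense RNA TGFB2-AS1, the receptors TGFBR1, TGFBR2 and TGFBR3, the signal carrier SMAD3, its inhibitor SMAD7 and the matrix protein gene TGFBI. They were chosen by name, with earlier results of these data known but by no threshold on a measured value, and are 9 of the 36779 genes in the deposited count tables. All 9 were tested, since each reached 1 CPM (counts per 1000000 after scaling for composition) in 2 libraries or more. RNA was measured in DU145 and PC3, established human prostate cancer cell lines. Each line was transfected with a plasmid for overexpression of the circular RNA circ0003553, with one for circ0004592, or with a negative control plasmid made for each of these arms. This gave 8 libraries of total RNA, 1 per line, arm and plasmid. A line therefore has 2 control libraries, which form 1 group, and 1 library for each circRNA. The titles name the arms after RCAN3 (circ0003553) and STK3 (circ0004592), the host genes. No label says whether the controls of a line were separate cultures, so p-values measure only the spread between these libraries, which may be technical.

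TGF-beta ligands are secreted in a latent form and, once released, bind the type II receptor TGFBR2, a kinase that recruits and switches on the type I receptor TGFBR1. TGFBR3 (betaglycan) is a co-receptor without kinase activity that presents ligand, TGFB2 in particular. The activated receptor phosphorylates SMAD2 and SMAD3, which enter the nucleus with SMAD4. SMAD7 is induced by the signal and blocks the receptor, a negative feedback. TGFBI is a matrix protein named for its induction by TGF-beta. In prostate epithelium the pathway is known for restraining growth, and in advanced carcinoma for invasion and bone metastasis. TGFB2-AS1 is a long noncoding RNA transcribed from the strand opposite to TGFB2.

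TGFB2 and TGFB2-AS1 lie head to head on chromosome 1. In the count tables, in hg38, TGFB2 runs from 218346235 to 218444619 on the plus strand with 5151 exon bases in 8 blocks, and TGFB2-AS1 from 218344196 to 218345678 on the minus strand with 557 exon bases in 3 blocks. In these models a gap of 556 bases separates the genes and no exon base is shared. RefSeq places the start of TGFB2 at 218345336, 899 bases further upstream, so that 129 of the 557 exon bases of TGFB2-AS1 (23.2%) lie within the RefSeq span of TGFB2. The 250 bases before the RefSeq start of TGFB2 are shown because 161 of them are exon of TGFB2-AS1, so that the promoter of one gene is in part the transcript of the other. The bases before the start of TGFBR2 are shown beside them, since TGFBR2 was also below both controls of its line in every circRNA library. Both stretches are from RefSeq on GRCh38.p14, plus strand, 5′ to 3′, with motif matches in capitals. They lie at chr1:218345086-218345335 for TGFB2 and chr3:30606106-30606355 for TGFBR2. In the count tables TGFBR2 starts at 30606502, downstream of the RefSeq start used for its stretch.
TGFB2: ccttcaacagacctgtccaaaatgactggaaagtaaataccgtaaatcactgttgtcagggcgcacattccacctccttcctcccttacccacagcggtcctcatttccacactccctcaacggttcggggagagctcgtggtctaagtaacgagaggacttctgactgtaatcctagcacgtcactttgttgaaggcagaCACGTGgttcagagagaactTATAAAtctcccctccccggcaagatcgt
TGFBR2: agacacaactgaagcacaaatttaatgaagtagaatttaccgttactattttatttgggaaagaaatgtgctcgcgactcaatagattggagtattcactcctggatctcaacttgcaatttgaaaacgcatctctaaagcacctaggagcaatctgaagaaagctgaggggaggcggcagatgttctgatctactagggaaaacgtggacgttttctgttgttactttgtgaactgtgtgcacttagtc
The capitals in TGFB2 mark an E-box (CACGTG) whose first base is 49 bases before the start and a TATA box (TATAAA) 29 bases before it. TGFBR2 has no match. The motifs searched on both strands were these 2, the CRE (TGACGTCA), AP-1 (TGANTCA), a SMAD palindrome (GTCTAGAC) and paired interferon response half-sites. Among 34943 RefSeq windows of the same length, 6.32% held the E-box, 10.8% the TATA box, 1.63% the CRE, 6.59% AP-1, 0.183% the SMAD palindrome and 3.02% the interferon half-sites. The 9 members had 23 windows, in which the E-box also occurred in SMAD3, AP-1 in SMAD3 and the TATA box in SMAD7. The 2 matches in TGFB2 do not overlap, and a match is a description of the sequence only.

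**Figure D1:**
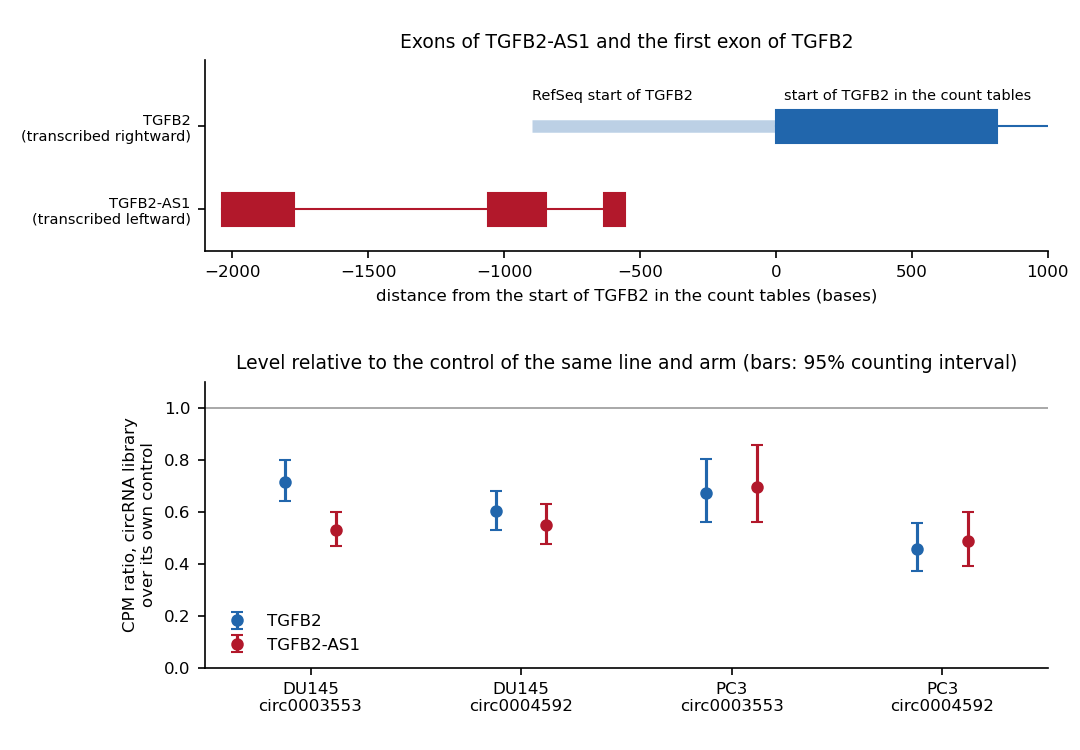
The upper panel maps the exons of TGFB2-AS1 and the first exon of TGFB2 by distance in bases from the TGFB2 start in the count tables, with the RefSeq start 899 bases to its left (pale bar). The lower panel gives the CPM of TGFB2 (blue) and TGFB2-AS1 (red) in each circRNA library divided by that in the control of the same line and arm, with 95% counting intervals; all 8 ratios and their intervals lie below 1, from 0.454 to 0.715 for TGFB2 and from 0.486 to 0.696 for TGFB2-AS1.

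Total counts ran from 33444940 to 49926342 per library, and both reads of a pair appear to have been counted, since 64.9% to 66.1% of the counts from 1 to 20 were even. A floor of 3 read pairs, or 6 counts, was used. The host genes were set against the labels. RCAN3 stood at 20.8 CPM in the DU145 control of its arm and at 36.9 CPM with circ0003553, and at 33.0 and 44.6 CPM in PC3. STK3 stood at 26.1 CPM in the DU145 control of its arm and 33.8 CPM with circ0004592, and at 9.13 and 19.5 CPM in PC3. Against both controls of the line, RCAN3 rose with circ0003553 in DU145 (adjusted p = 7.65e-06) and PC3 (adjusted p = 0.00037), and STK3 rose with circ0004592 in PC3 (adjusted p = 2.23e-07). The STK3 value in DU145, where the other control stood at 28.7 CPM, did not pass (adjusted p = 0.0745). Counts of a host gene take in both its messenger RNA and any transcript of the insert. The 4 epithelial keratin and EPCAM markers summed to between 1027 and 4448 CPM. The sum was at most 0.698 CPM for the 4 fibroblast markers and 0.614 CPM for the 3 leukocyte markers present in the tables, and at most 6.12 CPM for 3 endothelial markers, mostly PECAM1 in PC3.

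Among the controls, the lines differed most in TGFBI, followed by TGFBR3 and SMAD7, whose order cannot be told apart within their errors. By RPKM, which is per length, TGFB2-AS1 was the highest member in DU145 at 56.5 ± 1.08 (SD, n = 2), followed by TGFB1 at 22.4 ± 1.23, TGFBR2 at 18.8 ± 0.268 and SMAD3 at 13.8 ± 0.425. TGFB2 at 7.03 ± 0.788 and TGFBI at 7.03 ± 0.307 came next and overlapped in their ranges. TGFBR1 at 4.14 ± 0.214, SMAD7 at 1.28 ± 0.108 and TGFBR3 at 0.264 ± 0.0277 RPKM were the lowest. In PC3, TGFB1 led at 29.8 ± 0.176 RPKM (SD, n = 2), ahead of TGFB2-AS1 at 26.4 ± 4.01 and TGFBR2 at 25.0 ± 0.0836, whose order cannot be told apart because the range of TGFB2-AS1 (23.6 to 29.3) holds that of TGFBR2. SMAD3 at 16.4 ± 0.436, TGFB2 at 3.63 ± 0.0628, TGFBR1 at 1.96 ± 0.0353, TGFBR3 at 0.914 and 1.09 in the 2 controls, SMAD7 at 0.385 ± 0.102 and TGFBI at 0.0253 ± 0.00507 RPKM followed. TGFB2-AS1, with 557 exon bases, had 7.54 to 8.60 times the RPKM of TGFB2 in the DU145 controls and 6.58 to 7.97 times in the PC3 controls, while in CPM it was below TGFB2 in all 8 libraries.

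**Figure D2:**
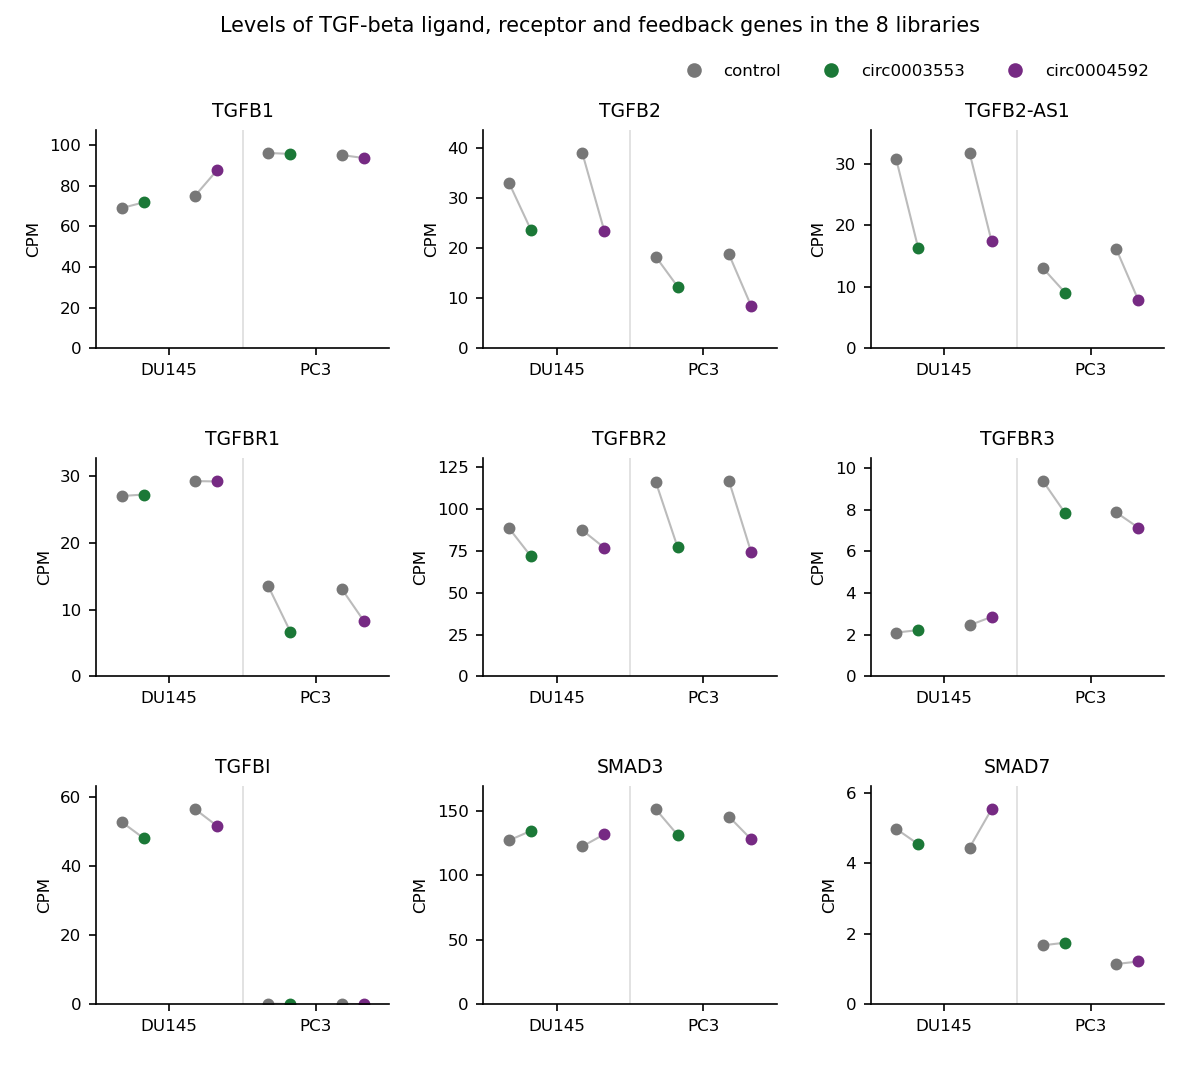
Each panel gives 1 gene's CPM on a linear axis from 0, with grey lines joining each circRNA library (green circ0003553, purple circ0004592) to the control (grey) of its line and arm. TGFB2 and TGFB2-AS1 lie below their controls in both lines, TGFBR1 is level in DU145 and lower in PC3, and TGFBI is near 0 in all 4 PC3 libraries.

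Against DU145, PC3 controls had less TGFB2 and TGFB2-AS1 and more TGFB1. TGFB1 had 69.0 and 75.0 CPM in the DU145 controls and 96.1 and 95.1 CPM in the PC3 controls. The log2 difference was 0.41 (SE 0.054, edgeR quasi-likelihood test, Benjamini-Hochberg adjusted p = 1.05e-06). TGFB2 had 33.1 and 39.0 CPM in DU145 and 18.3 and 18.7 CPM in PC3, a log2 difference of -0.96 (SE 0.087, adjusted p = 4.45e-09). TGFB2-AS1 had 30.7 and 31.8 CPM in DU145 and 13.0 and 16.1 CPM in PC3, a log2 difference of -1.10 (SE 0.094, adjusted p = 1.99e-09). The controls of the lines did not overlap for either gene. All 9 members passed the threshold of an adjusted p below 0.05 in this comparison, but so did 82.5% of the 17869 tested genes, so the count of calls sets the members little apart from the rest.

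The receptors went in both directions between the lines. TGFBR1 was 2.12 times as high in DU145 by CPM (log2 PC3 minus DU145 -1.08, adjusted p = 4.56e-10), with 27.0 and 29.3 CPM there and 13.5 and 13.1 CPM in PC3. TGFBR2 was 1.33 times as high in PC3 (log2 0.41, adjusted p = 3.37e-07), and TGFBR3 3.78 times as high (log2 1.92, adjusted p = 1.37e-09) at 9.38 and 7.87 CPM against 2.10 and 2.46 CPM in DU145. SMAD3 was 1.19 times as high in PC3 (log2 0.25, adjusted p = 0.000104), whereas its inhibitor SMAD7 was 3.34 times as high in DU145 (log2 -1.74, adjusted p = 3.08e-07). TGFBI had 52.7 and 56.4 CPM in the DU145 controls, but the PC3 controls held only 8 and 6 counts, at or barely above the floor. Over the pooled controls, TGFBI was 278 times as high in DU145, with a 95% counting interval (Clopper-Pearson on read pairs) of 135 to 693. Intervals and floors cover counting error only.

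TGFB2 and its antisense fell with both circRNAs in both lines. In DU145, TGFB2 went from 33.1 CPM in its own control to 23.6 CPM with circ0003553, and from 39.0 CPM to 23.4 CPM with circ0004592. In PC3 it went from 18.3 to 12.3 CPM and from 18.7 to 8.51 CPM. Both circRNA libraries of a line lay below both of its controls. TGFB2-AS1 went from 30.7 to 16.3 CPM with circ0003553 and from 31.8 to 17.4 CPM with circ0004592 in DU145, and from 13.0 to 9.08 CPM and 16.1 to 7.84 CPM in PC3. Its groups did not overlap in either line. In bulk RNA, fewer cells that carry a transcript and less of it per cell cannot be told apart.

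With both circRNA libraries of a line set against both controls, TGFB2 changed by -0.61 log2 in DU145 (SE 0.13, adjusted p = 0.0256) and by -0.83 in PC3 (SE 0.14, adjusted p = 0.000295). TGFB2-AS1 changed by -0.90 in DU145 (SE 0.11, adjusted p = 0.00157) and by -0.79 in PC3 (SE 0.13, adjusted p = 0.000182). In this comparison 2 of the 9 members, these 2 genes, were called in DU145, where 1.05% of all tested genes were called, and 4 of 9 in PC3, where 20.4% were. The median member stood at 0.0034 log2 in DU145 and -0.62 in PC3, against 0.0007 and -0.0079 over all tested genes. In DU145 the TGFB2 call rests on both controls, and the TGFB2-AS1 call on the control of the circ0004592 arm. Without the control of the circ0003553 arm, the TGFB2 change in DU145 was -0.73 with an adjusted p of 0.0964, and without that of the circ0004592 arm it was -0.49 with an adjusted p of 0.443. For TGFB2-AS1 the second of these gave -0.87 with an adjusted p of 0.0511. In PC3 both genes stayed past the threshold with each library of the 8 left out in turn.

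By itself, each circRNA gave the same direction. This fit estimates the spread from the controls alone, and a lone circRNA library is assumed to vary like them. In DU145, circ0003553 changed TGFB2 by -0.61 (adjusted p = 0.000902) and TGFB2-AS1 by -0.94 (adjusted p = 4.49e-05), and circ0004592 changed them by -0.62 (adjusted p = 0.00126) and -0.85 (adjusted p = 0.000183). In PC3, circ0003553 changed them by -0.59 (adjusted p = 0.00105) and -0.68 (adjusted p = 0.000766), and circ0004592 by -1.12 (adjusted p = 1.83e-06) and -0.90 (adjusted p = 7.04e-05). Both circRNAs of a line share its controls. Without either DU145 control the adjusted p in DU145 lay between 0.239 and 0.316 for these 4 values, and the PC3 values of TGFB2-AS1 also missed the threshold, at an adjusted p of 0.103 for circ0003553 and of 0.0776 to 0.0779 for circ0004592. With each circRNA library set against the control of its own arm over both lines, TGFB2-AS1 changed by -0.84 (SE 0.10, adjusted p = 0.0336), lower in 4 of 4 pairs, in a comparison where 0.179% of all tested genes were called. TGFB2 changed by -0.73 (SE 0.12, adjusted p = 0.0968), also lower in 4 of 4 pairs. Leaving out any of the 4 pairs took TGFB2-AS1 to an adjusted p of 0.103 to 0.218.

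The ratio of the antisense to TGFB2 varied between libraries, also between the 2 controls of a line, and its differences were not tested. TGFB2-AS1 CPM divided by TGFB2 CPM was 0.930 and 0.816 in the DU145 controls, 0.689 with circ0003553 and 0.743 with circ0004592. In PC3 it was 0.712 and 0.861 in the controls, 0.738 with circ0003553 and 0.921 with circ0004592. The DU145 circRNA libraries lay below the DU145 controls in this ratio, and those of PC3 did not lie below theirs. How separate the counts of the pair are depends on how overlaps were counted. Genes of at least 300 bases that lie wholly within the exons of 1 gene on the opposite strand, 120 to 152 per library, had a median read density of 0.422 to 0.618 of the gene around them, and only 1 to 5 of them had 0 counts. RP5-940J5.9, opposite to GAPDH and inside its exons, had 1.52 to 2.25 times the density of GAPDH. Strand does not appear to have parted such genes, and reads of any TGFB2 transcript from the RefSeq start cannot be told apart from TGFB2-AS1 in the 129 exon bases they share. TGFB2-OT1, a transcript lying wholly in the exons of TGFB2 on the same strand, had counts equal to 8.83% to 14.9% of those of TGFB2, and its level was 3.66 and 4.84 CPM in the DU145 controls and 2.88 and 2.07 CPM with the circRNAs.

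TGFBR2 was lower with the circRNAs in both lines and by more in PC3. It stood at 88.6 and 87.4 CPM in the DU145 controls, 71.8 CPM with circ0003553 and 76.9 CPM with circ0004592. In PC3 the controls had 116 and 117 CPM, and the circRNA libraries 77.1 and 74.5 CPM. The groups did not overlap in either line, and the PC3 libraries with a circRNA came down close to the DU145 ones, a likeness that was not tested. For both circRNAs together the change was -0.24 in DU145 (SE 0.078, adjusted p = 0.176) and -0.62 in PC3 (SE 0.078, adjusted p = 1.36e-05). Singly, TGFBR2 fell with circ0003553 in DU145 (-0.29, adjusted p = 0.00454), and with circ0004592 it stood at -0.20 with an adjusted p of 0.0569. Without a DU145 control the circ0003553 value in DU145 had an adjusted p of 0.264 to 0.275, and without a PC3 control the circ0004592 value passed, at an adjusted p of 0.0361 to 0.0362. In PC3 it fell with circ0003553 (-0.60, adjusted p = 5.46e-07) and circ0004592 (-0.65, adjusted p = 2.01e-07). Without the circ0004592 library of DU145, the change in DU145 passed at -0.29 with an adjusted p of 0.00957.

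TGFBR1 was lower with the circRNAs in PC3 and level in DU145. The PC3 controls had 13.5 and 13.1 CPM, and the circRNA libraries 6.69 CPM (circ0003553) and 8.33 CPM (circ0004592), well below them. The DU145 controls had 27.0 and 29.3 CPM, and the circRNA libraries 27.3 and 29.2 CPM, between them. TGFBR1 changed by -0.82 in PC3 for both circRNAs (SE 0.12, adjusted p = 7.95e-05), by -0.99 for circ0003553 alone (adjusted p = 6.65e-06) and by -0.68 for circ0004592 alone (adjusted p = 0.000343). In DU145 the value for both was 0.0034 (SE 0.10, adjusted p = 1). TGFBR3, the co-receptor, passed in no comparison with a circRNA. It had 9.38 and 7.87 CPM in the PC3 controls against 7.85 and 7.15 CPM with the circRNAs, and 2.10 to 2.86 CPM over the DU145 libraries.

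The receptor changes differed between the lines. The change in PC3 minus that in DU145 was -0.83 log2 for TGFBR1 (SE 0.16, adjusted p = 0.00194) and -0.38 for TGFBR2 (SE 0.11, adjusted p = 0.0321), and these were 2 of 9 members called where 12.0% of all tested genes were called. TGFBR1 kept this call with each library left out in turn. TGFBR2 lost it when any one of 6 libraries was left out, the 2 controls of either line or either PC3 circRNA library, with values from -0.42 to -0.37 and an adjusted p of 0.0742 to 0.146, and it had an adjusted p of 0.0647 with the arm as a block within the line. For TGFB2 the difference between the lines was -0.22 (SE 0.19, adjusted p = 0.522) and for TGFB2-AS1 0.11 (SE 0.17, adjusted p = 0.761), which does not show that they changed alike. The members that fell in PC3 did so in libraries with a strong interferon signature. The 10 interferon-stimulated genes listed summed to 338 and 344 CPM in the PC3 controls and to 14968 and 15530 CPM with the circRNAs. With both circRNAs all 10 rose there, where 20.4% of all tested genes were called, with a median of 6.18 log2. In DU145 the sums were 308 and 309 CPM in the controls and 335 and 353 CPM with the circRNAs. With both circRNAs 2 of 10 rose in DU145, where 1.05% of all were called, with a median of 0.46 over the 10. Their median in DU145 was 0.34 with circ0003553 alone and 0.38 with circ0004592 alone. The share of counts from mitochondrial genes also moved with the PC3 groups, from 7.97% and 7.75% in the controls to 4.94% and 6.08% with the circRNAs, and the other way in DU145, from 4.96% and 5.27% to 6.55% and 5.50%. The sum of the 4 epithelial markers was 1269 to 1307 CPM in the PC3 controls and 1027 to 1054 CPM with the circRNAs. The part of these in the changes of the members was not tested.

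**Figure D3:**
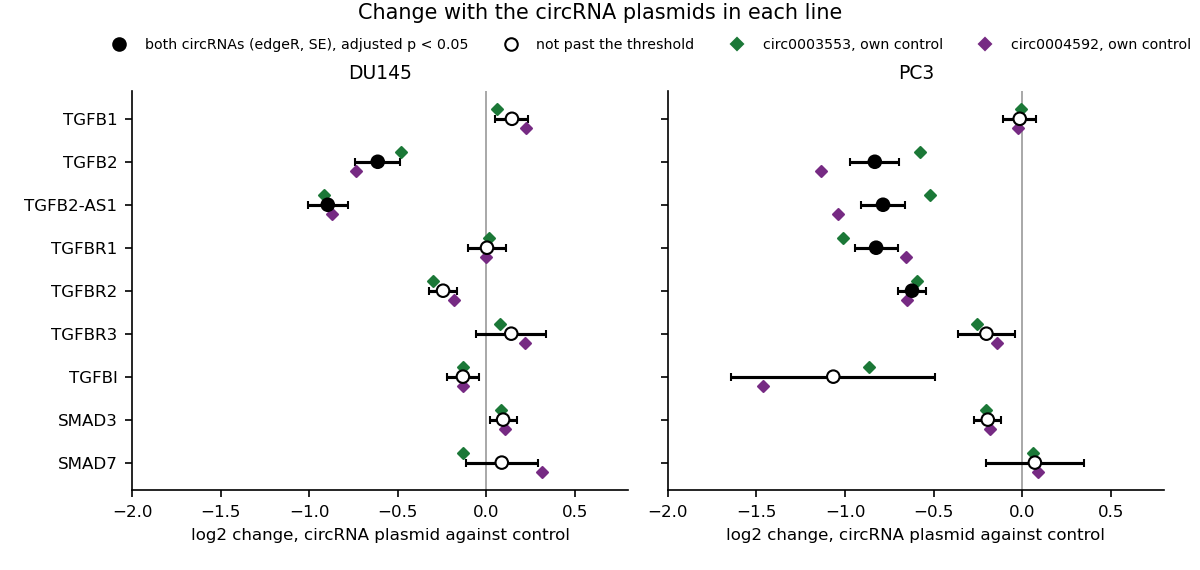
Log2 changes with the circRNA plasmids on the x axis for the 9 genes, in DU145 on the left and PC3 on the right. Circles are both circRNA libraries against both controls, filled where the adjusted p is below 0.05, with bars of 1 SE, and diamonds are single circRNA libraries against the control of their own arm; the filled circles are TGFB2 and TGFB2-AS1 in DU145, and these 2 with TGFBR1 and TGFBR2 in PC3. The TGFBI points in PC3 rest on 2 to 8 counts per library and are not read as a change.

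TGFB1, the second ligand, changed in 1 of the 4 circRNA comparisons. In DU145 it had 69.0 and 75.0 CPM in the controls, 71.8 CPM with circ0003553 and 87.6 CPM with circ0004592, which alone lay above both controls. TGFB1 rose with circ0004592 in DU145 by 0.28 (SE 0.067, adjusted p = 0.0107), with an adjusted p of 0.252 without the circ0003553-arm control of DU145 and 0.316 without the circ0004592-arm control. In PC3 all 4 libraries lay between 93.6 and 96.1 CPM. TGFB1 shares 215 exon bases with HNRNPUL1 on the opposite strand, which at the mean density of HNRNPUL1 would hold 18.2% to 20.5% of the TGFB1 counts in DU145 and 7.54% to 8.32% in PC3. HNRNPUL1 stood at 422 and 421 CPM in the DU145 controls, 447 CPM with circ0003553 and 484 CPM with circ0004592. The sum of the epithelial markers was also highest in the circ0004592 library of DU145, at 4448 CPM against 3379 CPM with circ0003553 and 3292 to 3454 CPM in the controls. The part of either in the TGFB1 value was not tested.

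SMAD3 was slightly lower with each circRNA in PC3, and whether it passed the threshold depended on the processing. Over the alternatives the log2 change ran from -0.24 to -0.16 with circ0003553 and from -0.26 to -0.19 with circ0004592. The first missed the threshold with DESeq2 and with limma on RPKM, and the second with limma on RPKM. For both circRNAs together, limma on RPKM and the filter of 5 CPM took it past the threshold. The PC3 controls had 151 and 145 CPM and the circRNA libraries 131 and 128 CPM, without overlap. The change was -0.18 with circ0003553 (SE 0.060, adjusted p = 0.0345) and -0.21 with circ0004592 (SE 0.060, adjusted p = 0.0139), and both missed the threshold without either DU145 control, at an adjusted p of 0.116 and 0.0955. The first also missed it without the circ0003553-arm control of PC3, at an adjusted p of 0.0832. For both circRNAs together SMAD3 stood at -0.19 in PC3 (adjusted p = 0.0845), and it passed when either circRNA library of DU145 was left out, at an adjusted p of 0.0037 to 0.00454. In DU145 the controls had 127 and 122 CPM and the circRNA libraries 134 and 132 CPM, and the change of 0.094 had an adjusted p of 0.68. The change of SMAD3 in PC3 minus that in DU145 was -0.29 (SE 0.11, adjusted p = 0.0987), which did not pass. It passed for SMAD3 without the circ0003553 library of DU145 (adjusted p = 0.0178), without the circ0004592 library of DU145 (adjusted p = 0.00738) and with the filter of 5 CPM (adjusted p = 0.0455). SMAD7 had 4.98 and 4.45 CPM in the DU145 controls and 4.54 and 5.54 CPM with the circRNAs, and 1.68 and 1.14 against 1.75 and 1.22 CPM in PC3. The groups overlapped in both lines. TGFBI had 48.0 and 51.6 CPM with the circRNAs in DU145, below the 52.7 and 56.4 CPM of the controls, at -0.13 with an adjusted p of 0.607. In PC3 it had 4 and 2 counts with the circRNAs, under the floor.

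By circRNA, 3 of the 9 members were called with circ0003553 in DU145, all lower (TGFB2, TGFB2-AS1 and TGFBR2), where 10.5% of all tested genes were called. With circ0004592 in DU145, 3 were called, TGFB1 higher and TGFB2 and TGFB2-AS1 lower, where 9.89% of all were. In PC3, 5 were called lower with each circRNA (TGFB2, TGFB2-AS1, TGFBR1, TGFBR2 and SMAD3), where 28.2% of all tested genes were called for circ0003553 and 24.8% for circ0004592. Set against each other, the circRNAs differed in DU145 in 1 member, TGFB1, by 0.29 (circ0004592 minus circ0003553, SE 0.077, adjusted p = 0.0182), where 13.4% of all tested genes were called. This call was lost without either DU145 control, at an adjusted p of 0.161. In PC3 edgeR called 0 of the 9 members and 0.0672% of all tested genes. DESeq2 gave no adjusted p for any of the 9 members in this comparison, so it cannot add to that. At an unadjusted p below 0.05 there was 1 member, TGFB2, at -0.53 (SE 0.15, adjusted p = 0.308), from 12.3 CPM with circ0003553 to 8.51 CPM with circ0004592. It passed without either PC3 control, at an adjusted p of 0.0461 to 0.0469. TGFBR1 stood at 0.32 in PC3 (SE 0.15, adjusted p = 0.6), and TGFBR2 at -0.049 (SE 0.073, adjusted p = 0.909).

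Of 63 other genes of the family and pathway, 57 were tested. In DU145, 0 rose and 3 fell with both circRNAs, where 1.05% of all tested genes were called, and their median was -0.030 log2. In PC3, 11 rose and 12 fell, where 20.4% of all were called, with a median of -0.076. Among 6 tested ligands, 0 rose and 3 fell in PC3: GDF15, a stress-induced cytokine, by -0.88, GDF11 by -0.79 and the activin and inhibin subunit INHBB by -0.68. GDF11 shares 386 exon bases with SARNP on the opposite strand, which at its mean density would hold 45.5% of the GDF11 counts, so its value is uncertain. Of 8 genes of latency and activation, 0 rose and 2 fell in PC3: THBS1, a matrix protein that releases latent TGF-beta, by -0.41, and LTBP1, which anchors it in the matrix, by -0.40. Of 8 other receptors, 1 rose in PC3, the BMP receptor BMPR2, by 0.65, from 25.2 and 24.8 CPM to 39.7 and 38.5 CPM. Of 6 other SMADs, 1 fell, the inhibitory SMAD6, by -0.75. SMAD7, the other inhibitory SMAD, did not pass, and the difference between the 2 genes was not tested.

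Among 10 other inhibitors and feedback genes, 3 rose and 1 fell in PC3. BAMBI, a decoy receptor, changed by 1.73 (adjusted p = 0.00285), from 0.894 and 0.726 CPM to 2.95 and 2.43 CPM. PMEPA1, a SMAD-binding feedback inhibitor, changed by -1.40 (adjusted p = 0.000288), from 2.01 and 1.70 CPM to 0.859 and 0.547 CPM, while DU145 had 66.6 and 69.8 CPM in the controls and 52.9 and 58.1 CPM with the circRNAs. KLF10, a TGF-beta-induced repressor, changed by 0.27 (adjusted p = 0.0237). The remaining gene that rose, named after its value was seen, was SMURF1, a ubiquitin ligase that acts on SMADs and the receptor, by 0.27 (adjusted p = 0.0316). KLF10 missed the threshold when any one PC3 library was left out, at an adjusted p of 0.0991 to 0.269, and SMURF1 when any PC3 library or either DU145 control was, at an adjusted p of 0.0591 to 0.293. KLF10 also missed the threshold with no filter and with limma on RPKM. SMURF1 missed it with these, with DESeq2 and with the arm as a block. Of 19 other target genes, 7 rose and 5 fell in PC3. ID3, a BMP target, rose by 1.92, from 2.09 and 2.32 CPM to 7.55 and 9.21 CPM. PTHLH, which codes for a hormone of bone metastasis, fell by 1.07 on the log2 scale, from 14.6 and 15.3 CPM to 8.01 and 6.17 CPM. The target list, which takes in BMP targets, thus had calls in both directions in PC3. The genes that rose were not only BMP targets.

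The 3 genes that fell in DU145 were BMP4, a ligand, by -0.67 (adjusted p = 0.00412), the matrix gene FN1 by -0.42 (adjusted p = 0.0288) and the cell cycle inhibitor CDKN2B by -0.40 (adjusted p = 0.0404). BMP4 and FN1 were named after their values were seen, and CDKN2B for the size of its change in PC3. FN1 and CDKN2B also fell in PC3, by -0.45 and -0.90. BMP4 stood in DU145 at 26.3 and 27.4 CPM in the controls and at 17.6 and 16.0 CPM with the circRNAs. Without the control of either arm of DU145, 0 of the pathway genes were called in that line, and without either circRNA library of DU145 9 were; without any one PC3 library 1 was. In PC3 the number called was 19 to 32 over all 15 alternatives. The change differed between the lines for 16 pathway genes, 9 of them higher and 7 lower in PC3, where 12.0% of all tested genes were called, and the alternatives gave 9 to 20.

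**Figure D4:**
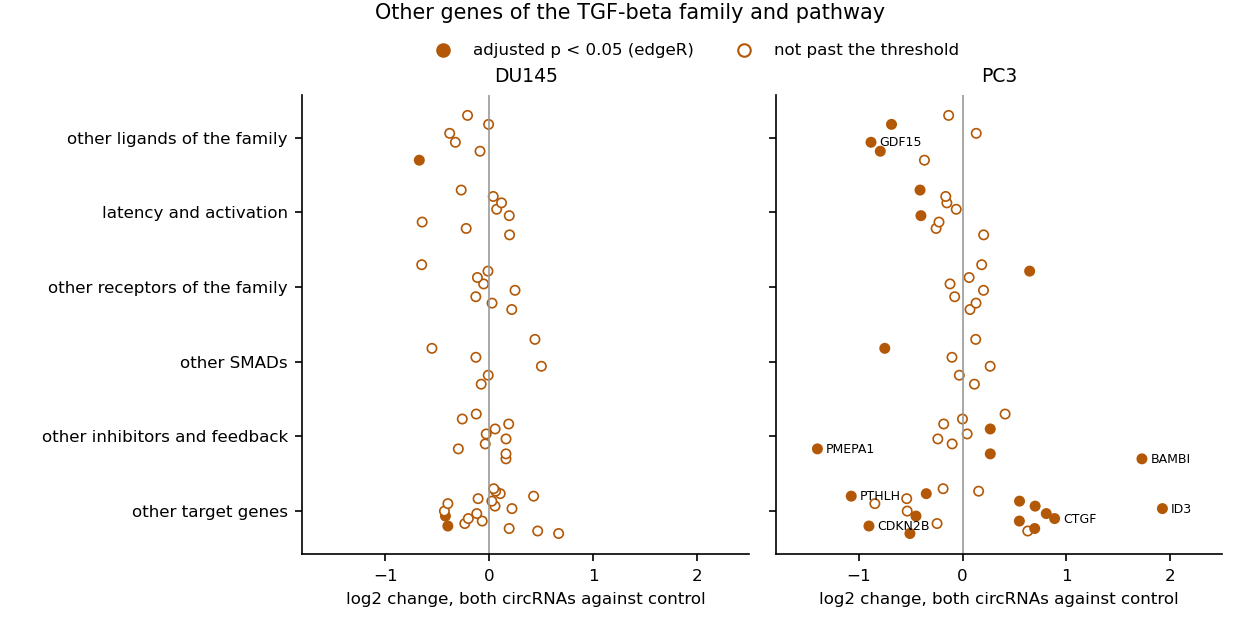
Each point is 1 of the 57 tested pathway genes outside the 9 members, by list, with its log2 change for both circRNAs against control on the x axis, in DU145 (left) and PC3 (right); filled points have an adjusted p below 0.05. In DU145 3 points are filled, all lower, and in PC3 23, from -1.40 (PMEPA1) to 1.92 (ID3).

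The genes whose levels moved most like those of TGFB2 and TGFB2-AS1 were sought among 12295 genes of at least 5 CPM on average, by the Pearson correlation of log2 CPM over the 8 libraries after each line was centred on its own mean. The points share the libraries and the contrast of circRNA and control, so r is a description. For TGFB2 the closest were ZC2HC1A (r = 0.979), KBTBD11-OT1 (r = 0.978) and ARHGEF10 (r = 0.977). The last pair share 6419 exon bases on the same strand and so in part the same reads. ZC2HC1A went from 34.8 and 35.4 CPM in the PC3 controls to 26.5 and 22.7 CPM with the circRNAs. For TGFB2-AS1 the closest were WWC1, a regulator of Hippo signalling (r = 0.981), RPRD1A (r = 0.980) and PANK3 (r = 0.978), an enzyme of coenzyme A synthesis that shares 1451 exon bases with SLC2A3P1. WWC1 had 203 and 204 CPM in the DU145 controls and 139 and 152 CPM with the circRNAs. TGFB2 and TGFB2-AS1 correlated with each other at r = 0.930, at rank 83 among the genes most like TGFB2 and at rank 56 among those most like TGFB2-AS1.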

How the data were processed

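Per the labels, total RNA was depleted of ribosomal RNA, made into stranded libraries with an 8-base molecular identifier and read in pairs of 150 bases. Per the submitters' processing notes, the authors used Trimmomatic 0.36, featureCounts from Subread 1.5.1, edgeR 3.12.1 and hg38. The aligner, annotation release, strand setting and use of identifiers are not given in the sources used here. The authors deposited read counts and RPKM per gene, in 1 pair of tables per arm. Of 36779 genes, 31268 stand in both count tables. The 5511 in 1 table had at most 14 counts and were given 0 in the other. The deposited RPKM values were recomputed from the counts and matched.

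CPM here are counts per 1000000 of the TMM effective size of the 17869 tested genes (at least 1 CPM in at least 2 libraries). Tests were edgeR 4.0.16 quasi-likelihood tests (R 4.3.3, limma 3.58.1) on all 8 libraries, adjusted by Benjamini-Hochberg over the tested genes, threshold 0.05. Single circRNAs, the circRNAs against each other and the lines used 6 groups of line and treatment (2 residual degrees of freedom), both circRNAs 4 groups (4), and own controls blocks of line and arm (3). An SE is the absolute log2 change over the square root of F. The tests were checked on simulated data. Named besides the members are up to 3 genes per pathway list with the largest change past the threshold, a few genes marked as named after their values were seen, genes sharing exons with a member, the 3 genes most like TGFB2 and TGFB2-AS1, RCAN3 and STK3. A few genes of the lists are not reported here. Members and lists were chosen with earlier results of these data known. Alternatives were DESeq2 size factors, DESeq2 1.42.0, no filter, a filter of 5 CPM, limma on log2 RPKM plus 0.1 or 1, arm as a block, and each library or pair left out. Intervals are 95% Clopper-Pearson on read pairs.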

Additional observations from a re-analysis of the deposited data

Results flagged for a closer look

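By the test of the difference itself, the change with both circRNAs differed between PC3 and DU145 for 2 of the 9 genes. It also differed for 7 of the other pathway genes named, where 12.0% of all tested genes were called. Those genes were named for a large change in DU145 or PC3, or after their values were seen. That choice favours a difference between the lines, so their number is not read as a result. Over the 57 tested pathway genes, 9 were called higher and 7 lower in PC3. All values are log2 changes in PC3 minus those in DU145, from the edgeR quasi-likelihood test adjusted over all tested genes. TGFBR1 differed by -0.83 (SE 0.16, adjusted p = 0.00194) and TGFBR2 by -0.38 (SE 0.11, adjusted p = 0.0321). Lower in PC3 were also PTHLH by -1.50 (SE 0.25, adjusted p = 0.000563), PMEPA1 by -1.10 (SE 0.26, adjusted p = 0.0078), GDF11 by -0.70 (SE 0.12, adjusted p = 0.000474), LTBP1 by -0.59 (SE 0.16, adjusted p = 0.018) and CDKN2B by -0.50 (SE 0.12, adjusted p = 0.00902). Higher in PC3 were ID3 by 1.71 (SE 0.32, adjusted p = 0.00154) and BMPR2 by 0.66 (SE 0.13, adjusted p = 0.00243). LTBP1 missed the threshold when any one of 6 libraries was left out, all but the circ0004592 library of DU145 and the circ0004592-arm control of PC3, at an adjusted p of 0.0503 to 0.114. CDKN2B missed it without either DU145 control or the circ0003553 library of PC3, at 0.0525 to 0.0628. PMEPA1 missed it without the circ0003553-arm control of PC3, at 0.0551, or the circ0004592 library of PC3, at 0.0984. PTHLH was under 3 CPM in all DU145 libraries, where LTBP1 stood at 2.85 to 3.59 CPM. ID3 and PMEPA1 were low in 1 line or both, so that the differences of these genes rest on few counts there. GDF11 shares 386 exon bases with SARNP on the opposite strand, so its value is uncertain. All 10 interferon-stimulated genes also differed between the lines, by a median of 5.69, and the part of that rise in these values was not tested.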

How the results depend on the processing

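Of 1090 values of the 9 genes under the alternatives, 970 kept their direction and their side of the threshold, 61 lost the threshold, 20 gained it and 39 changed sign, 0 of these from a call. DESeq2 gave no adjusted p for 24 further values. Counts below are of the 9 genes called, and values are log2 changes. A gene without an adjusted p counts as not called. Where counts or values moved otherwise, the cause was not tested, beyond the smaller number of libraries where one was left out.

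With limma on log2 RPKM plus 0.1, 0 genes were called in DU145 for circ0003553, circ0004592, both circRNAs and circ0004592 against circ0003553, and 0 for both circRNAs against their own controls. With log2 RPKM plus 1 these counts were also 0, except 1 for both circRNAs in DU145. DESeq2 called 1 gene with circ0004592 in DU145, where it gave no adjusted p for TGFB2 or TGFB2-AS1. Against own controls DESeq2 called 3, and leaving out the filter also gave 3. With the arm as a block, 1 gene was called for PC3 minus DU145. With a library left out the number called ran from 0 to 3 for circ0003553 in DU145, 0 to 4 for circ0004592 in DU145, 3 to 5 for each circRNA in PC3, 0 to 3 for both in DU145, 4 to 5 for both in PC3, 1 to 4 for PC3 minus DU145, and 0 to 1 for the circRNAs against each other in either line. It was 0 against own controls without any pair.

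TGFB1 changed sign with circ0003553 in DU145, at 0.0092 with the 5 CPM filter, 0.027 with RPKM plus 0.1 and 0.026 with RPKM plus 1, and in PC3, at -0.010 with DESeq2 size factors or DESeq2, -0.057 with no filter, -0.031 with the 5 CPM filter, -0.056 with RPKM plus 0.1 and -0.054 with RPKM plus 1. TGFBR1 with both circRNAs in DU145 was -0.0031 with RPKM plus 0.1 and -0.0027 with RPKM plus 1. TGFB2 between the circRNAs in DU145 was 0.0085 with DESeq2 size factors and 0.00081 with no filter. With RPKM plus 1 the difference between the lines was 0.10 for TGFBI and 0.031 for PMEPA1, which is at or under 2.01 CPM in PC3.

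Left-out libraries gave ranges on both sides of 0 as follows. With circ0003553 in DU145 they were -0.064 to 0.057 for TGFB1, -0.10 to 0.012 for TGFBR1, -0.15 to 0.079 for TGFBR3 and -0.13 to 0.031 for SMAD7. With circ0004592 in DU145 TGFBR1 ran from -0.0028 to 0.11. In PC3 TGFB1 ran from -0.031 to 0.0015 with circ0003553 and SMAD7 from -0.48 to 0.077 with circ0004592. With both circRNAs in DU145 the ranges were -0.00029 to 0.29 for TGFB1, -0.053 to 0.062 for TGFBR1, -0.028 to 0.33 for TGFBR3 and -0.051 to 0.23 for SMAD7, and in PC3 -0.23 to 0.36 for SMAD7. For PC3 minus DU145 they were -0.53 to 0.0016 for TGFB2, -0.050 to 0.25 for TGFB2-AS1 and -0.32 to 0.27 for SMAD7. Against own controls they were -0.11 to 0.038 for TGFBR3, -0.098 to 8.6e-05 for SMAD3 and -0.011 to 0.17 for SMAD7.

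Over all tested genes the number called (lowest to highest over the alternatives) was 14748 for the lines (11581 to 16997), 1883 for circ0003553 in DU145 (0 to 2699), 1767 for circ0004592 in DU145 (0 to 2530), 5041 for circ0003553 in PC3 (1952 to 5157), 4440 for circ0004592 in PC3 (1587 to 4583), 187 for both in DU145 (6 to 1441), 3644 for both in PC3 (1938 to 5776), 2141 for PC3 minus DU145 (1267 to 3831), 2394 for the circRNAs against each other in DU145 (0 to 3156), 12 for that in PC3 (0 to 97) and 32 for own controls (0 to 549). In that PC3 comparison 10 were higher and 2 lower, and with DESeq2 size factors 15 and 10.

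SMAD7 and TGFBI in PC3 and TGFBR3 in DU145 are limited by their counts. Each circRNA has 1 library per line. The labels give no replicate numbers; pairs are circRNA and control libraries of 1 line and arm.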
